A study of Rattus norvegicus with 30 samples.

Results

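The genes described here are 8 transcripts known as targets of bone morphogenetic protein (BMP) signalling: the inhibitors of DNA binding Id1, Id2, Id3 and Id4, the inhibitory SMADs Smad6 and Smad7, and the endothelial BMP targets Tmem100 and Atoh8. They were taken from the deposited table by gene name, and each name matched 1 of its 30562 rows. All 8 members passed the filter on low counts that left 16171 genes for testing. RNA had been sequenced from lung cells of wild-type rats, sorted with beads for CD31, which endothelial cells carry on their surface. The cells were taken 3 weeks after a sham operation or a Glenn operation, which joins a caval vein to the pulmonary artery. Within each operation the animals received a control diet, a vitamin A-deficient diet or a vitamin A-excess diet, which gives 6 groups of 5 libraries and 30 libraries in all. The labels do not say whether each library came from a separate animal, so p-values measure only the spread between libraries, which may in part be technical.

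BMP ligands of the blood bind a complex of the type I receptor ALK1 (Acvrl1), the type II receptor Bmpr2 and the co-receptor endoglin (Eng) on endothelial cells, and the receptors phosphorylate SMAD1, SMAD5 and SMAD9, which enter the nucleus with SMAD4. The Id genes are immediate targets of these SMADs, and Id proteins bind helix-loop-helix transcription factors without binding DNA themselves. SMAD6 and SMAD7 are induced by the same signal and act back on it as brakes, SMAD6 mainly on BMP signalling and SMAD7 on both the BMP and the TGF-beta branch.

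Of the 8 genes, 7 were lower after Glenn than after sham surgery when the diets were averaged, and 0 were higher. Smad6 fell the most on the log2 scale, followed by Tmem100, Smad7, Id1, Id3, Atoh8 and Id2, while Id4 did not pass the test. By diet, 7 of the 8 were lower on the control diet, 6 on the deficient diet and 7 on the excess diet. Among all 16171 genes tested with edgeR at an adjusted p under 0.05, 24.7% were lower with the diets averaged, 13.1% on the control diet, 13.7% on the deficient diet and 10.4% on the excess diet. In the averaged comparison 48.2% of all genes passed in one direction or the other. The median log2 change of the 8 genes was -1.08 with the diets averaged, against -0.01 for all genes tested. A lower value in RNA from a pool of sorted cells can come from fewer cells of one type or from less RNA per cell, and these cannot be told apart here.

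Promoter sequence is shown for Id1 and Id3, the members whose levels followed each other most closely among Glenn libraries (values are given further on), and for Id4, the Id gene that did not pass the test. RefSeq's GRCr8 table held 6 of the 8 members, and Smad6 and Tmem100 had no entry. The deposited values were made on another rat build, so these coordinates belong to GRCr8 only. Each line gives the 250 bases before the start of the gene, 5′ to 3′ on the gene's own strand. Capitals mark the TATA box TATAAA in Id1 and the motif GGAGCC in Id3, and Id4 had neither in this window. The intervals are chr3:161671314-161671563 on the plus strand for Id1, chr5:153656041-153656290 on the plus strand for Id3 and chr17:16598294-16598543 on the minus strand for Id4.
Id1: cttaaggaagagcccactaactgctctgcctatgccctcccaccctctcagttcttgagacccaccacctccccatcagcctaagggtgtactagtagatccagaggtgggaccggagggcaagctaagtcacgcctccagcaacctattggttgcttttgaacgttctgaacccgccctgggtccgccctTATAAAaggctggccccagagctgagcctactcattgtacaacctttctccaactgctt
Id3: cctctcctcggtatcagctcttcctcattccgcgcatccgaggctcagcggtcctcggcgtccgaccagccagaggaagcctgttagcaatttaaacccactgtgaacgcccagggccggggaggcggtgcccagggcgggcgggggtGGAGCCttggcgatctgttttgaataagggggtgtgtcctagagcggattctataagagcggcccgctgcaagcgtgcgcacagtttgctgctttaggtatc
Id4: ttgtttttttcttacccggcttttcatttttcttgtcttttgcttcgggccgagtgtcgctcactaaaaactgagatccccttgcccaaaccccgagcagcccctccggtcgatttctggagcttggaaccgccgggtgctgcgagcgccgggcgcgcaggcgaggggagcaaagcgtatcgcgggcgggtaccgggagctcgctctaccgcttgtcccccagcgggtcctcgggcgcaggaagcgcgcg

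Motifs were searched on both strands in the window from 250 bases before to 50 bases after each start, in the 6 members and in all 33469 promoters of the table. GGCGCC, a palindrome bound by the SMADs of the BMP branch, was found in Id4 and Smad7, and in 11.0% of all promoters. Its variant GGAGCC was found in Id2 and Id3, and in 27.9% of all promoters. The composite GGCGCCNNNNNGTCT, in which the first of these motifs is followed by a SMAD4 site, was found in 0 of the 6 members and in 0.0538% of all promoters. The same composite with GGAGCC was found in 0 of the 6 members and in 0.146% of all promoters, and the palindrome GTCTAGAC in 0 members and 0.197% of all promoters. TATAAA was found in Id1 alone of the 6, starting 59 bases before the gene, and in 14.2% of all promoters. The E-box CANNTG, the site bound by the helix-loop-helix factors that Id proteins hold back, was found in Id1, Id2 and Atoh8 and in 72.1% of all promoters. GC content ran from 55.7% in Id1 to 77.7% in Smad7, against a median of 51.7% over all promoters. Among the 13727 promoters that belong to tested genes the shares were 19.5% for GGCGCC, 38.5% for GGAGCC, 64.9% for CANNTG and 7.76% for TATAAA. A median GC content of these promoters is not given here, so the members' GC content is set only against all promoters. These matches describe letters within one short window, and enhancers farther away were not examined.

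Smad6 (ENSRNOG00000009173), the inhibitory SMAD that acts mainly on the BMP branch, changed more than any other member. Levels are given as CPM, counts per 1 M (mega) after TMM scaling of the library totals. On the control diet the sham libraries held 947, 1031, 923, 916 and 915 CPM of Smad6 and the Glenn libraries 116, 147, 105, 86.8 and 87.2 CPM. On the deficient diet the sham libraries held 856, 942, 589, 1064 and 954 CPM and the Glenn libraries 179, 105, 121, 115.5 and 133.5 CPM. On the excess diet the sham libraries held 1074, 1006, 1147, 970.2 and 942 CPM and the Glenn libraries 232, 127, 99.4, 119.7 and 105 CPM. The highest Glenn library therefore lay far below the lowest sham library, and the ranges did not overlap on any diet. Glenn libraries had on average 13.2% of the sham mean, from 9.13% to 24.4% in single libraries. The log2 change was -3.12 (SE 0.19, edgeR adjusted p = 1.09e-12) on the control diet, -2.82 (SE 0.19, edgeR adjusted p = 1.07e-11) on the deficient diet and -2.76 (SE 0.20, edgeR adjusted p = 9.35e-11) on the excess diet. Averaged over diets it was -2.90 (SE 0.11, edgeR adjusted p = 5.63e-18).

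Smad7 (ENSRNOG00000018359), the inhibitory SMAD of both the BMP and the TGF-beta branch, was also lower on every diet and varied more between libraries. Control-diet sham libraries held 134, 137, 134, 113 and 118 CPM and Glenn libraries 20.1, 39.6, 28.1, 26.9 and 28.1 CPM. On the deficient diet the sham libraries spread from 58.4 to 137 CPM (77.1, 58.4, 117, 137 and 64.2) and the Glenn libraries held 29.1, 21.6, 22.6, 35.7 and 53.6 CPM. Excess-diet sham libraries held 127, 78.9, 139.8, 147.5 and 157 CPM and Glenn libraries 46.2, 19.7, 42.3, 27.3 and 26.9 CPM. All 15 Glenn libraries lay below all 15 sham libraries, although on the deficient diet the highest Glenn library (53.6 CPM) came close to the lowest sham library (58.4 CPM). The log2 change was -2.15 (SE 0.25, edgeR adjusted p = 2.21e-07) on the control diet, -1.41 (SE 0.25, edgeR adjusted p = 9.13e-05) on the deficient diet and -2.27 (SE 0.27, edgeR adjusted p = 5.34e-07) on the excess diet. Averaged over diets it was -1.94 (SE 0.15, edgeR adjusted p = 1.62e-11), and Glenn libraries had 26.9% of the sham mean.

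**Figure D1:**
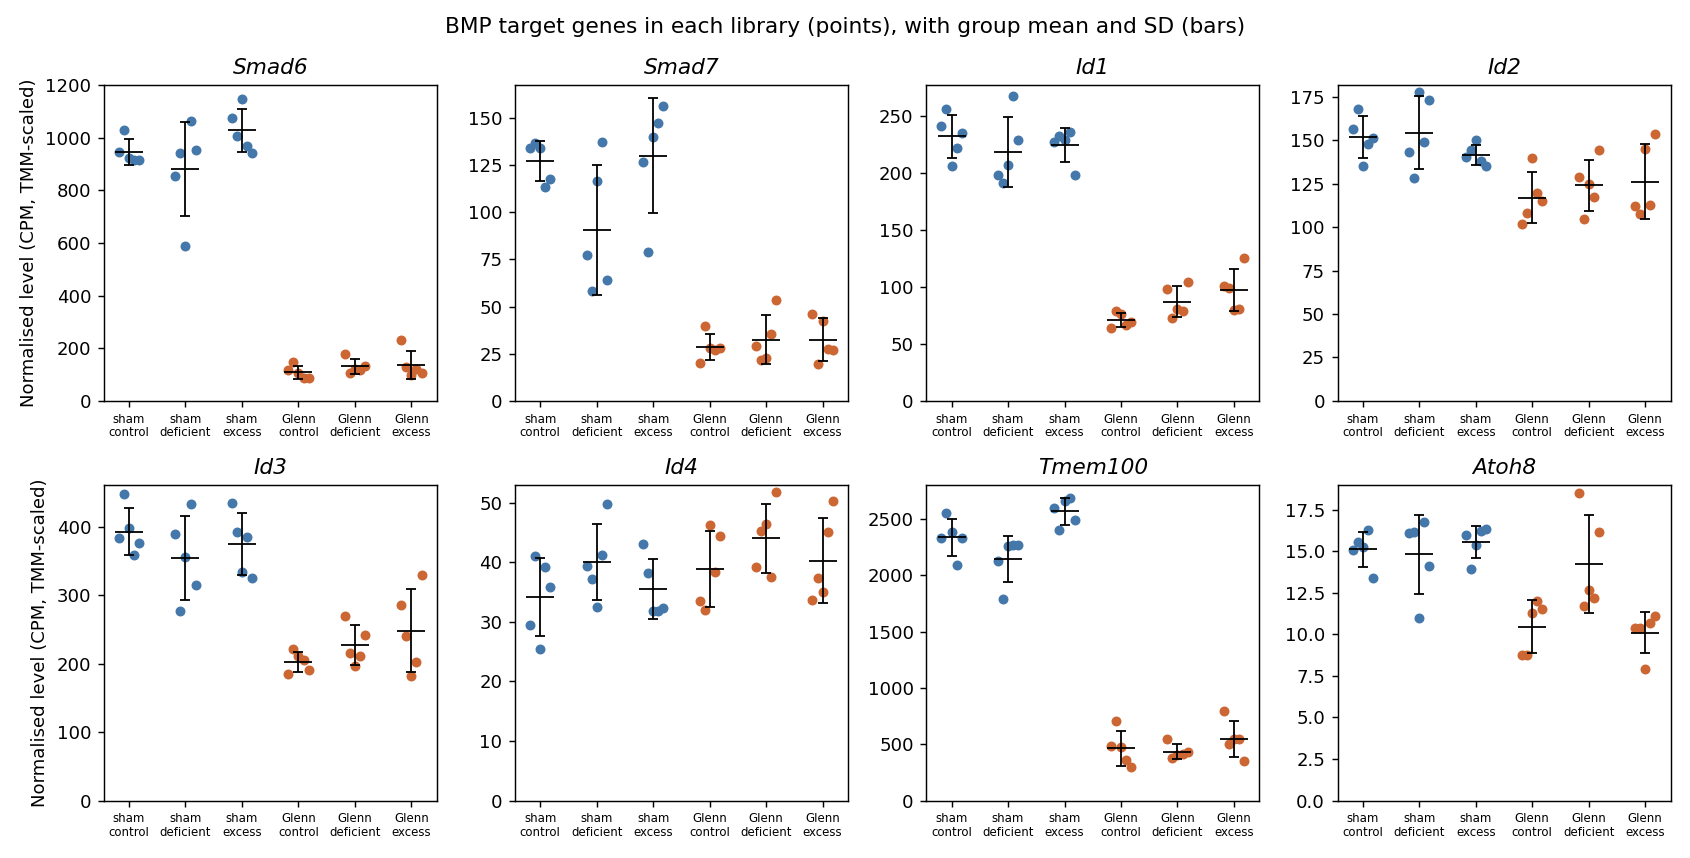
Level of each of the 8 genes (CPM, TMM-scaled, linear axis from 0) in the 30 libraries, by operation and diet. Points are libraries, the long tick is the group mean and the bars are 1 SD (n = 5). All Glenn libraries (orange) lie below all sham libraries (blue) for Smad6, Smad7, Id1 and Tmem100, and the ranges overlap for Id2, Id3, Id4 and Atoh8.

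Id1 (ENSRNOG00000021750) had the largest fall among the Id genes. On the control diet sham libraries held 241, 256, 206, 222 and 235 CPM and Glenn libraries 64.4, 78.7, 76.5, 67.1 and 69.1 CPM. With the deficient diet sham libraries held 198, 191, 207, 267 and 229 CPM and Glenn libraries 98.6, 72.8, 80.9, 79.3 and 104 CPM. On the excess diet sham libraries held 228, 232, 229, 236 and 198 CPM and Glenn libraries 101, 99.4, 79.9, 81.0 and 126 CPM. The ranges were apart on each diet, and the highest Glenn library of all, 126 CPM, stayed below the lowest sham library, 191 CPM. The log2 change was -1.71 (SE 0.11, edgeR adjusted p = 2.79e-12) on the control diet, -1.30 (SE 0.11, edgeR adjusted p = 5.79e-10) on the deficient diet and -1.27 (SE 0.12, edgeR adjusted p = 7.73e-09) on the excess diet. Averaged over diets it was -1.43 (SE 0.07, edgeR adjusted p = 9.19e-17), and Glenn libraries had 37.9% of the sham mean.

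Id3 (ENSRNOG00000026124), which shares many partners and targets with Id1, fell less. Its control-diet sham libraries held 384, 448, 399, 359 and 376 CPM and Glenn libraries 185, 221, 212, 206 and 191 CPM. Deficient-diet sham libraries held 389.7, 277, 356, 434 and 316 CPM and Glenn libraries 269.8, 215, 197, 211 and 243 CPM. Excess-diet sham libraries held 435, 393, 335, 386 and 325 CPM and Glenn libraries 285, 240.25, 182, 202 and 330.5 CPM. The ranges were apart on the control and deficient diets and overlapped on the excess diet through 1 Glenn library, replicate 5, at 330.5 CPM. The log2 change was -0.95 (SE 0.13, edgeR adjusted p = 2.04e-06) on the control diet, -0.64 (SE 0.13, edgeR adjusted p = 0.000502) on the deficient diet and -0.59 (SE 0.15, edgeR adjusted p = 0.00336) on the excess diet. Averaged over diets it was -0.73 (SE 0.08, edgeR adjusted p = 4.73e-09), and Glenn libraries had 60.4% of the sham mean, from 48.7% to 88.3% in single libraries.

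Id2 (ENSRNOG00000007237), an Id protein with a known role in lymphoid and epithelial cells as well, was lower by a small margin. On the control diet its sham mean was 152 ± 11.99 CPM and its Glenn mean 117 ± 14.6 CPM (SD, n = 5 each), with libraries of 157, 168, 135, 148 and 152 CPM against 102, 108.5, 140.1, 119.8 and 115 CPM. The sham and Glenn means were 154 ± 20.97 and 124 ± 14.7 CPM on the deficient diet, and 142 ± 5.86 and 126 ± 21.4 CPM on the excess diet (SD, n = 5 each). Glenn and sham ranges overlapped on all 3 diets. The averaged log2 change was -0.32 (SE 0.05, edgeR adjusted p = 8.06e-06), and by diet it was -0.38 (adjusted p = 0.0019), -0.26 (adjusted p = 0.032) and -0.32 (adjusted p = 0.0182) on the control, deficient and excess diets by the same edgeR test. On the deficient diet the call was lost when any 1 of 5 libraries was left out (sham replicates 1, 3 and 5, Glenn replicates 2 and 4; log2 change -0.24, -0.23, -0.24, -0.23 and -0.19). On the excess diet it was lost without Glenn replicate 2 (-0.30, edgeR adjusted p = 0.0747) and without the term for library series (-0.17, edgeR adjusted p = 0.242). In all, 7 of 14 alternatives ended the call on the excess diet, among them a fit of only the groups compared (edgeR adjusted p = 0.0563) and a fit that took the RT1-CE16 level as covariate where the series had stood (edgeR adjusted p = 0.0988). On the deficient diet the call was also lost within series A (-0.18, edgeR adjusted p = 0.334) and within the libraries low in RT1-CE16, described further on (edgeR adjusted p = 0.36).

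Id4 (ENSRNOG00000016099), an Id protein best known from neural cells, did not pass the test on any diet. Its libraries ran from 25.5 to 49.8 CPM after sham surgery and from 32.0 to 51.7 CPM after Glenn surgery, over all diets. The control-diet sham libraries held 29.5, 41.0, 25.5, 39.3 and 35.8 CPM and the control-diet Glenn libraries 33.5, 32.0, 46.3, 38.3 and 44.3 CPM. The averaged log2 difference was 0.15 (SE 0.08, 95% interval -0.02 to 0.32, edgeR adjusted p = 0.137). In this fit the interval excludes a fall of the size measured for Id1, Id2 or Id3. Over the 13 alternatives the averaged Id4 difference ran from -0.35 to 0.40. A fall of the size measured for Id2 in the main fit (-0.32) is thus not excluded in every alternative.

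Tmem100 (ENSRNOG00000002434), a membrane protein induced by ALK1 signalling and needed for vessel development, was lower in every Glenn library. On the control diet sham libraries held 2331, 2551, 2383, 2091 and 2331 CPM and Glenn libraries 484, 706, 479.9, 358 and 302 CPM. Deficient-diet sham libraries held 2131.5, 1793, 2265, 2273 and 2266.5 CPM and Glenn libraries 546.5, 378, 402, 415 and 428 CPM. On the excess diet sham libraries held 2599.8, 2406.5, 2659.8, 2685 and 2490.0 CPM and Glenn libraries 796, 499, 551, 549.6 and 352 CPM. The Glenn ranges lay wholly below the sham ranges, at 20.6% of the sham mean on average and 33.8% in the highest library. The log2 change was -2.33 (SE 0.18, edgeR adjusted p = 7.17e-11) on the control diet, -2.33 (SE 0.18, edgeR adjusted p = 1.05e-10) on the deficient diet and -2.17 (SE 0.19, edgeR adjusted p = 2.55e-09) on the excess diet. Averaged over diets it was -2.28 (SE 0.10, edgeR adjusted p = 1.31e-16).

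Atoh8 (ENSRNOG00000010716), a helix-loop-helix transcription factor induced by BMP signalling in endothelial cells, was lower on 2 of the 3 diets. Control-diet sham libraries held 15.1, 15.5, 15.2, 16.3 and 13.4 CPM and Glenn libraries 8.73, 8.76, 11.3, 12.02 and 11.5 CPM. Excess-diet sham libraries held 15.9, 13.9, 15.3, 16.2 and 16.3 CPM and Glenn libraries 10.4, 10.4, 7.93, 10.7 and 11.1 CPM. Deficient-diet sham libraries held 16.1, 16.1, 10.95, 16.8 and 14.1 CPM and Glenn libraries 18.5, 11.7, 12.6, 12.2 and 16.2 CPM. The ranges were apart on the control and excess diets and overlapped on the deficient diet, where Glenn replicate 1 was above every sham library. The log2 change was -0.53 (SE 0.13, edgeR adjusted p = 0.00263) on the control diet and -0.56 (SE 0.15, edgeR adjusted p = 0.00496) on the excess diet. With vitamin A deficiency the difference was -0.08 (SE 0.13, 95% interval -0.35 to 0.19, edgeR adjusted p = 0.717). Averaged over diets the change was -0.39 (SE 0.08, edgeR adjusted p = 9.53e-05). On the deficient diet a change as large as on the control diet lies outside that interval, but the difference between these diets did not pass its own test (0.45, SE 0.18, edgeR adjusted p = 0.996).

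**Figure D2:**
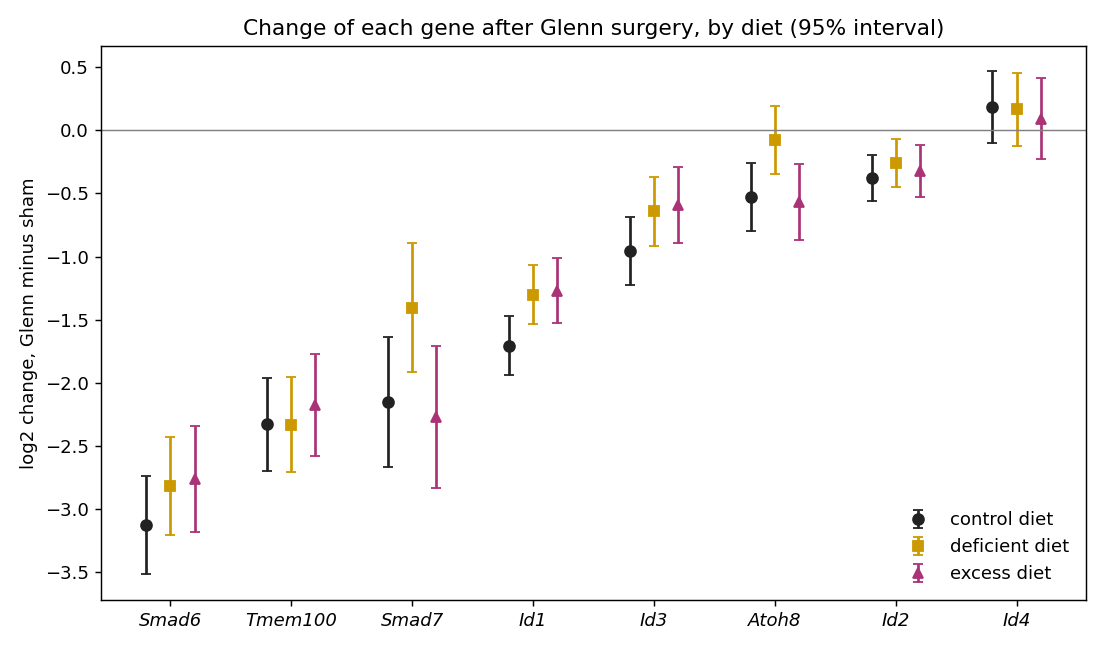
log2 change from sham to Glenn surgery (vertical axis) for each gene and diet, from the edgeR fit of all 30 libraries; symbols are estimates and bars are 95% intervals. The intervals lie below 0 on all diets for Smad6, Tmem100, Smad7, Id1, Id3 and Id2, cross 0 for Atoh8 on the deficient diet, and cross 0 on all diets for Id4.

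Counted by library rather than by test, 6 members had every Glenn library below every sham library on the control diet (Id1, Id3, Smad6, Smad7, Tmem100 and Atoh8), where 9.41% of all genes did. On the deficient diet 5 did (Id1, Id3, Smad6, Smad7 and Tmem100), against 9.59% of all genes. On the excess diet 5 did (Id1, Smad6, Smad7, Tmem100 and Atoh8), against 7.75% of all genes. With the diets pooled, 4 members had all 15 Glenn libraries below all 15 sham libraries (Id1, Smad6, Smad7 and Tmem100), against 2.73% of all genes.

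The members differed in how far they fell, and this could be measured within each library as the log2 ratio of one gene to another. Each gene was taken as CPM + 1, so the scaling of the library drops out only in part. The added 1 weighs most on Atoh8, at 7.93 to 18.5 CPM in Glenn libraries. The ratios were chosen after the changes had been seen, and all 28 pairs of the 8 genes were tested with the operation permuted within diets (100000 two-sided permutations). Library series was not held fixed in these permutations. On the excess diet series A held 5 sham and 2 Glenn libraries, so operation and series are partly mixed there. The ratio changed in 27 of the 28 pairs, with a largest Benjamini-Hochberg adjusted permutation p of 0.00677 among them. Pairs of other genes were not tested, and 48.2% of all genes passed in the averaged comparison. Neither this count nor the lack of overlap in single pairs therefore sets the members apart from other genes. The log2 ratio of Id1 to Id2 changed by -1.12 after Glenn surgery, and the ratio of Id1 to Id3 by -0.68 (permutation p = 1e-05 each, the smallest that these permutations can give, adjusted p = 1.27e-05). In both ratios the 15 Glenn libraries lay below the 15 sham libraries without overlap. Between the inhibitory SMADs, the ratio of Smad6 to Smad7 changed by -1.09 (adjusted permutation p = 1.27e-05), although the ranges overlapped. Smad6 fell further than Tmem100 too (ratio -0.63, adjusted permutation p = 1.27e-05). The pair that did not pass was Id2 and Atoh8, with a ratio change of 0.09 (adjusted permutation p = 0.39). The ratio of Smad7 to Tmem100 changed by 0.46 (adjusted permutation p = 0.00528) over all libraries and by 0.32 within library series A (adjusted permutation p = 0.0551).

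Vitamin A content of the diet changed none of the 8 members past the threshold within either operation. After sham surgery, 0 members passed in the comparison of deficient with control diet (0.0% of all genes called), of excess with control diet (0.241%) and of excess with deficient diet (0.0124%). After Glenn surgery, 0 passed for deficient against control diet (0.00618% of all genes), excess against control diet (1.47%) and excess against deficient diet (0.0%). DESeq2 and limma voom also called 0 members in each of these 6 comparisons. At an unadjusted p under 0.05 in edgeR the numbers of members were 1, 0 and 1 in sham and 3, 2 and 2 in Glenn libraries, in the same order. Of all genes, 5.22%, 11.1% and 5.28% in sham and 9.88%, 13.9% and 5.18% in Glenn libraries were under the same unadjusted value. After sham surgery, Smad7 had a log2 difference of -0.81 (SE 0.27, edgeR adjusted p = 0.575) on the deficient against the control diet and of 0.84 (SE 0.27, edgeR adjusted p = 0.633) on the excess against the deficient diet. Its deficient-diet sham mean was 90.7 ± 34.5 CPM, against 127 ± 10.7 CPM on the control diet and 129.9 ± 30.5 CPM on the excess diet (SD, n = 5 each), and the ranges overlapped.

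After Glenn surgery, the mean of Id1 was 71.1 ± 6.17 CPM on the control diet, 87.2 ± 13.6 CPM on the deficient diet and 97.4 ± 18.7 CPM on the excess diet (SD, n = 5 each). All 5 excess-diet Glenn libraries (79.9 to 126 CPM) lay above all 5 control-diet Glenn libraries (64.4 to 78.7 CPM). The share of all genes apart in this way was not computed. These CPM are not adjusted for library series, and series B held 3 of the excess-diet and 0 of the control-diet Glenn libraries. The log2 difference of 0.39 (SE 0.12) had an edgeR adjusted p of 0.1, and within series A, which holds 2 of the 5 excess-diet Glenn libraries, it was 0.49 with an edgeR adjusted p of 0.0212. Smad6 differed by 0.49 on the log2 scale in the same comparison (SE 0.19, edgeR adjusted p = 0.222), with Glenn means of 108 ± 24.8 and 137 ± 54.4 CPM (SD, n = 5 each). Without excess-diet Glenn replicate 1, the highest library at 232 CPM, the Smad6 difference was 0.14 (edgeR adjusted p = 0.903). Atoh8 was at 14.2 ± 2.95 CPM in deficient-diet Glenn libraries and 10.5 ± 1.59 CPM in control-diet Glenn libraries (SD, n = 5 each; log2 difference 0.48, SE 0.14, edgeR adjusted p = 0.265).

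The effect of the Glenn operation was compared between diets by the interaction of surgery and diet, which 0 members passed and 0.00618% of all genes did. In this edgeR test 3 members, and 5.72% of all genes, had an unadjusted value under 0.05: Id1 (edgeR adjusted p = 0.758), Smad7 (edgeR adjusted p = 0.87) and Atoh8 (edgeR adjusted p = 0.805). Among the pairwise differences of the Glenn effect, 0 members passed for deficient against control diet (0.0% of all genes), excess against control diet (0.0186%) and excess against deficient diet (0.0%). For Id1 the log2 change on the control diet was larger in size than on the deficient diet by 0.40 and than on the excess diet by 0.44 (SE 0.16 each, edgeR adjusted p = 0.996 and 0.478). For Tmem100 the 95% interval of the difference between deficient and control diet ran from -0.50 to 0.50.

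Levels of the members were compared between libraries of the same operation after the mean of each diet group had been subtracted, as Pearson's r and Spearman's rho of log2(CPM + 1), over 28 pairs in 15 sham and in 15 Glenn libraries (56 relations). Among Glenn libraries, Id1 and Id3 rose and fell together (r = 0.88, rho = 0.90, permutation p = 1e-05 for both, the smallest the permutations can give, adjusted p = 0.00056). Without the 2 libraries farthest from the median of Id1, r was 0.86. Within series A alone (10 Glenn libraries) r was 0.77, with a permutation adjusted p of 0.142. In sham libraries r of this pair was 0.58 (rho = 0.46, permutation adjusted p = 0.133 for r and 0.305 for rho), and the difference between operations was not tested.

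Smad6 and Tmem100 also varied together among Glenn libraries (r = 0.84, permutation p = 3e-05, adjusted p = 0.00084; rho = 0.76, permutation p = 0.00138, adjusted p = 0.0386). It was 0.80 without the 2 libraries farthest from the median of Smad6, and 0.93 within series A (10 libraries, permutation adjusted p = 0.00336), where rho was 0.90 and did not pass (permutation adjusted p = 0.0515). Replicate 1 on the excess diet had the highest Glenn level of both, 232 CPM of Smad6 and 796 CPM of Tmem100. In sham libraries the same pair had r = -0.02 (rho = 0.27, permutation adjusted p = 0.948 and 0.631). Of the other 54 relations, 0 passed the threshold by r or rho in all libraries. In sham libraries of series A, Id1 and Id2 passed by r (0.80, 12 libraries, permutation adjusted p = 0.0437) and not by rho (0.71, permutation adjusted p = 0.195).

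**Figure D3:**
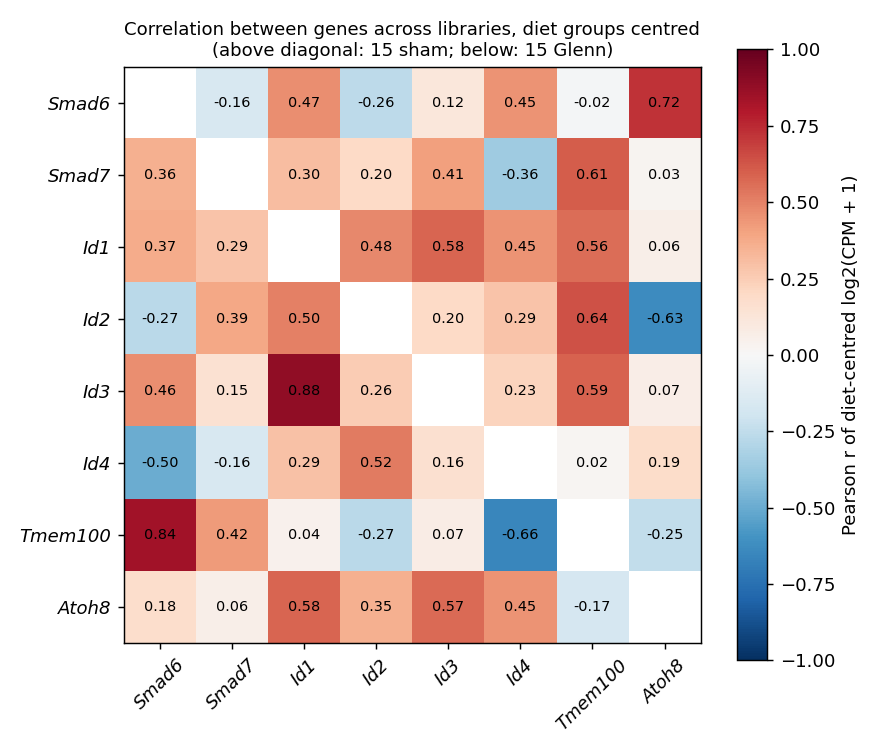
Pearson r between each pair of genes over libraries (diet group means subtracted, log2(CPM + 1)), with the 15 sham libraries above the diagonal and the 15 Glenn libraries below it. Among Glenn libraries the strongest values are Id1 with Id3 (0.88) and Smad6 with Tmem100 (0.84).

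The genes whose levels followed each member most closely were ranked by the mean of r over the 15 sham and the 15 Glenn libraries, among 9357 genes of at least 10 CPM. These values describe the ranking and carry no test, since each is the highest of many, and the points share their libraries and scaling. Id3 was followed by Sox18, a transcription factor of endothelial cells, with r of 0.87 in both operations. Smad6 was followed by Wdr24 (0.78 in sham, 0.83 in Glenn libraries) and by Gata2, a GATA factor of endothelial and blood cells (0.82 and 0.77). Tmem100 was followed by Siah1 (0.77 and 0.88) and by Fendrr, a long noncoding RNA (0.70 and 0.88). Id1 was followed by Lims2 (0.80 and 0.67) and next by Id3 (0.58 and 0.88). For Smad7 the closest were Tmem165 (0.89 and 0.65) and Cldn15 (0.81 and 0.65), for Id2 Ssbp3 (0.71 and 0.68), for Id4 Mrpl30 (0.80 and 0.60) and for Atoh8 Adat3 (0.80 and 0.69).

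Other genes of the pathway did not move as one. In the averaged comparison, 23.4% of all genes tested were higher and 24.7% lower, and the list counts that follow stand beside these shares. Of 10 BMP receptor genes, 7 were lower and 2 higher after Glenn surgery with the diets averaged. Bmpr2, the type II receptor, went from 642 ± 63.6 CPM in sham to 259 ± 33.3 CPM in Glenn libraries (mean ± SD over 15 libraries each), which is -1.30 on the log2 scale (SE 0.06, edgeR adjusted p = 7.92e-17). The co-receptor Eng changed by -1.45 (SE 0.07, edgeR adjusted p = 3.11e-16) and Acvrl1, the ALK1 gene, by -1.39 (SE 0.07, edgeR adjusted p = 6.11e-16). Of 6 SMADs that carry the signal, 4 were higher and 1 was lower. Smad1, a BMP-branch SMAD, rose from 82.2 ± 4.69 to 313 ± 57.7 CPM (mean ± SD over 15 libraries each), which is 1.89 on the log2 scale (SE 0.07, edgeR adjusted p = 2.96e-19), in the direction opposite to Smad6. Smad9, of the same branch, changed by -0.91 (SE 0.09, edgeR adjusted p = 7.32e-10), and Smad3, of the TGF-beta branch, by 0.77 (SE 0.10, edgeR adjusted p = 1.09e-07).

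Of 14 ligands and antagonists, 4 were higher and 4 lower, shares near those of all genes (23.4% and 24.7%). Mgp, matrix Gla protein, which binds BMPs, rose from 88.7 ± 12.9 to 281 ± 68.7 CPM (mean ± SD over 15 libraries each), which is 1.70 on the log2 scale (SE 0.09, edgeR adjusted p = 6.98e-15). The ligand Bmp6 changed by -0.79 (SE 0.06, edgeR adjusted p = 9.57e-13) and the antagonist Nog by -1.96 (SE 0.15, edgeR adjusted p = 4.39e-12), the latter from a low level of 3.79 ± 0.72 CPM in sham libraries (SD, n = 15). Of 11 partners of the inhibitory SMADs, which are ubiquitin ligases and deubiquitinases, 4 were higher and 3 lower, with all genes at 23.4% and 24.7%. Smurf2, a ubiquitin ligase that SMAD7 brings to the receptor, changed by -1.04 (SE 0.05, edgeR adjusted p = 5.8e-16), Stambpl1 by 1.19 (SE 0.11, edgeR adjusted p = 1.76e-10) and Nedd4l by -0.32 (SE 0.05, edgeR adjusted p = 2.33e-06).

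Of 9 helix-loop-helix genes listed as partners of the Id proteins, 6 were higher and 1 lower, against 23.4% and 24.7% of all genes. Tcf3, which encodes the E proteins that Id proteins bind, rose from 60.4 ± 3.70 to 84.9 ± 6.84 CPM (mean ± SD over 15 libraries each), which is 0.49 on the log2 scale (SE 0.04, edgeR adjusted p = 2.72e-11). Heyl changed by 1.39 (SE 0.16, edgeR adjusted p = 5.5e-08), and Tal1, a factor of endothelial and blood cells, by -0.37 (SE 0.06, edgeR adjusted p = 3.9e-06). Of 8 TGF-beta target genes, 4 were higher and 2 lower, with Ccn2 at 0.92 (SE 0.09, edgeR adjusted p = 2.14e-09) and Skil at -0.53 (SE 0.06, edgeR adjusted p = 3.92e-09).

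**Figure D4:**
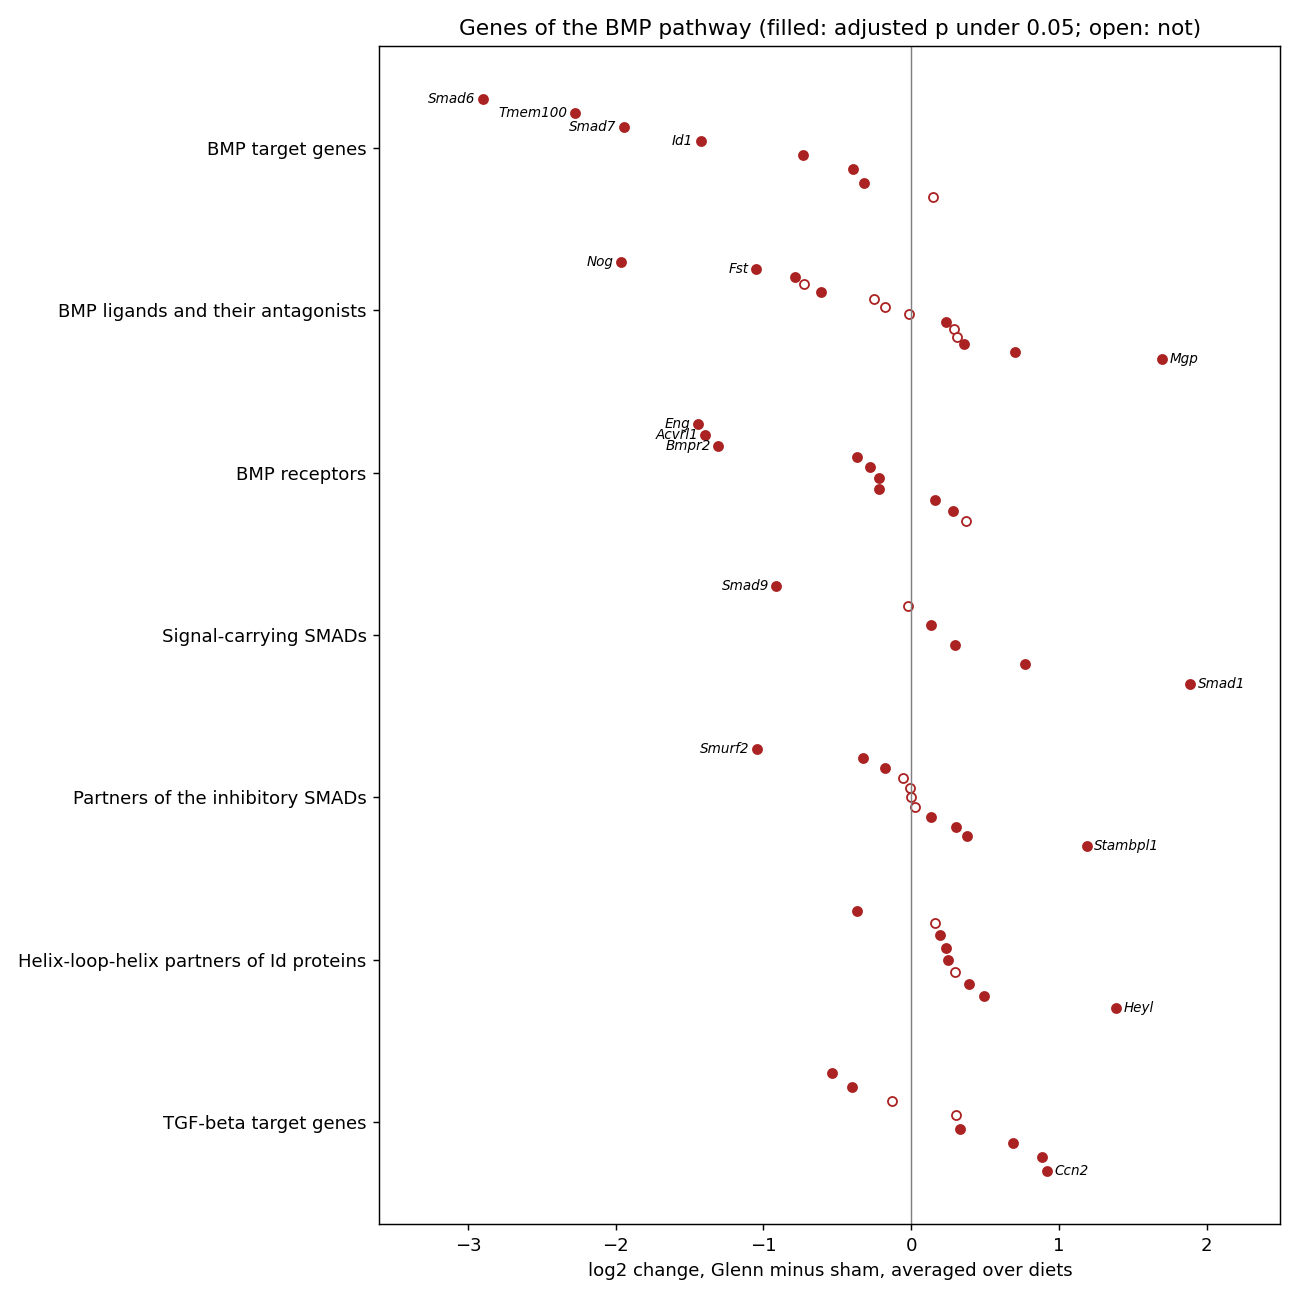
log2 change from sham to Glenn surgery, averaged over diets (horizontal axis), for the 8 members in the top row and for 6 lists of pathway genes below. Filled points passed an edgeR adjusted p of 0.05 and open points did not; genes that passed with a change of over 0.9 in size are named.

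Markers of several cell types moved with the operation. The summed level of 7 markers of all endothelial types ran from 7055 to 8756 CPM in sham and from 5250.2 to 7764 CPM in Glenn libraries. That of 5 general capillary markers ran from 5992 to 9017 CPM in sham and from 2548 to 5761 CPM in Glenn libraries, and that of 5 aerocyte markers from 1407 to 2284 and from 829 to 1224 CPM. Within the endothelial list, Ramp2 had a median of 1167 CPM in sham and 714 CPM in Glenn libraries. Egfl7 (525 and 336 CPM), Tek (1237 and 883 CPM) and Cdh5 (2413 and 2076 CPM) were also lower at the median. Pecam1 had medians of 1120 and 1069 CPM, while Tie1 (924 and 1110 CPM) and Emcn (288 and 304 CPM) were higher. Within the general capillary list, the fall of the sum was mostly that of Plvap, whose median was 5163 CPM in sham and 1405 CPM in Glenn libraries. Kit was lower too, with medians of 506 and 355 CPM. Gpihbp1 had medians of 126 and 122 CPM, Cd93 of 895 and 855 CPM and Aplnr of 880.2 and 736 CPM. Within the aerocyte list, Apln went the other way, from 120.2 to 245 CPM in sham to 332 to 594 CPM in Glenn libraries, and the other 4 were lower. Higher after Glenn surgery were the sums of 6 lymphatic markers (1090.0 to 2004 against 2468 to 5101 CPM) and 8 mural markers (175 to 359.6 against 526 to 1788 CPM). Type 2 alveolar markers were abundant in sorted cells of both operations (34360 to 59211 CPM in sham, 24450 to 55584 CPM in Glenn libraries), while leukocyte markers were low (6.08 to 34.7 and 4.70 to 18.01 CPM). The median type 2 sum in sham and Glenn libraries was 40757 and 41790 CPM on the control diet. It was 41517 and 27702 CPM on the deficient diet, and 43739 and 28532 CPM on the excess diet.

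The part of these shifts in the members' changes was not tested. Fits with marker scores are given as alternatives, and the scores share the operation with the members, which limits what these fits can separate. With arterial, general capillary and aerocyte scores in the model, Smad6 and Id1 stayed lower with an edgeR adjusted p of at most 0.000852 and 0.000314 in the averaged comparison over all alternatives. In the fit with these scores 2.35% of all genes were called, and the other 5 members lost the call: Tmem100 (-1.45, SE 0.42, edgeR adjusted p = 0.0637), Smad7 (-1.34, SE 0.64, edgeR adjusted p = 0.335), Id3 (-0.77, SE 0.33, edgeR adjusted p = 0.26), Id2 (-0.73, SE 0.22, edgeR adjusted p = 0.071) and Atoh8 (-0.73, SE 0.34, edgeR adjusted p = 0.306). Their log2 changes in the main fit were -2.28, -1.94, -0.73, -0.32 and -0.39 (SE 0.10, 0.15, 0.08, 0.05 and 0.08). With the scores the SE was larger for all 5. The estimates of Tmem100 and Smad7 were smaller in size and those of Id3, Id2 and Atoh8 were not, but differences between the fits were not tested. With mural and fibroblast scores in the model (12.2% of all genes called), Atoh8 lost the averaged call (-0.51, SE 0.18, edgeR adjusted p = 0.0682), again with a larger SE. That fit ended the deficient-diet calls of Smad7 (-0.82, edgeR adjusted p = 0.222), Id3 (-0.59, edgeR adjusted p = 0.128) and Id2 (-0.45, edgeR adjusted p = 0.0721). It also ended the excess-diet calls of Id3 (-0.52, edgeR adjusted p = 0.263), Atoh8 (-0.70, edgeR adjusted p = 0.0875) and Id2 (-0.52, edgeR adjusted p = 0.0557). With the 7 endothelial markers as the scale, the median of all genes shifted to 0.24, Id2 (-0.07) and Atoh8 (-0.13) lost the call (edgeR adjusted p = 0.455 and 0.222), and Id4 passed at 0.40 (edgeR adjusted p = 0.000633).

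Libraries also differed in ways that the groups do not explain. They held 22 to 77.6 M estimated counts (median 40 M). Library numbers fell in 2 ranges, 22 libraries in series A and 8 in series B, and both control-diet groups and the excess-diet sham group held series A only. The class I gene RT1-CE16 split the libraries into 17 with 21.9 to 44.4 CPM and 13 with 407 to 949 CPM. On the deficient and excess diets this split was the same as that by series. The low level (series A) there held 2 sham and 3 Glenn libraries on the deficient diet, and 5 sham and 2 Glenn libraries on the excess diet. The high level (series B) held 3 sham and 2 Glenn libraries on the deficient diet. The values by level carry no test. Among RT1-CE16-low libraries the log2 change of Smad6 was -3.01, -2.76 and -2.57 on the control, deficient and excess diets. Among RT1-CE16-high libraries it was -3.38 and -2.75 on the control and deficient diets, while on the excess diet no sham library was RT1-CE16-high. For Id1 the same values were -1.76, -1.21 and -1.16 (low), and -1.68 and -1.35 (high). For Tmem100 they were -2.15, -2.16 and -2.02, and -2.78 and -2.43, and for Smad7 -2.22, -1.43 and -2.03, and -2.10 and -1.19. Id3 (-1.01, -0.54 and -0.51, and -0.93 and -0.69) and Id2 (-0.48, -0.19 and -0.36, and -0.30 and -0.35) kept their sign too. Atoh8 was at -0.63, -0.19 and -0.54, and at -0.32 and 0.03, so its sign on the deficient diet differed between the levels.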

How the data were processed

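RNA from CD31-positive rat lung cells was sequenced in 30 libraries (6 groups of 5), made with a SMART-Seq low-input kit per the labels' protocols. The deposited values are estimated counts per gene, and the submitters' processing notes name FastQC, Trim Galore, STAR, Picard and Salmon and the builds mRatBN7.2 and rn7; versions are not given in the sources used here. Of the deposited estimated counts, 13.6% were not whole numbers, and all were rounded. All 30 sample columns were used.

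With edgeR 4.0.16, low genes were removed (filterByExpr, at least 10 counts in enough libraries and 15 in all), and counts were scaled by TMM (factors 0.938 to 1.06) and fitted by quasi-likelihood with 6 group means and library series as a term. P-values were Benjamini-Hochberg adjusted over 16171 genes, with a threshold of 0.05. DESeq2 1.42.0 and limma 3.58.1 (voom) were alternatives, with other scalings, filters, terms, marker scores and left-out libraries. On simulated data the averaged comparison recovered 192 of 200 changed genes with 9 false calls among 15988 genes. The simulation held no effect of series or diet, took its spread from the fit, and changed far fewer genes than were called here. Its changes were all larger than the averaged ones of Id2 and Atoh8, so the recovery does not cover changes of that size. Libraries of a group differed by more than counting noise, so each was counted once in n; separate preparations from one animal would differ in this way too. Same-numbered Glenn and sham libraries had correlations of deviations from -0.246 to 0.231. Mean correlations with the other numbers ran from -0.085 to 0.041, and the same-numbered value was mostly the higher. Replicate 1 was RT1-CE16-low and male, by its Ddx3y level, in each of the 6 groups. The labels state no pairs, and numbers were not used as pairs in the main fit.

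The members and lists were chosen with earlier results of these data known. From each list, up to 3 genes with the smallest adjusted p in the averaged comparison are named (values of 1 such gene of the TGF-beta target list are not reported here), and for likeness the 3 highest-ranked genes were taken, of which 1 or 2 are named. Counting intervals are not given, since replicate spread exceeds counting error. R 4.3.3 and Python 3.11.15 were used.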

Additional observations from a re-analysis of the deposited data

Results flagged for a closer look

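In 4 of the 48 sets of 5 libraries (8 genes in 6 groups), 1 library lay far from the other 4 by Dixon's criterion, a rate near what chance gives (about 1 in 20 sets). Smad6 in Glenn libraries on the excess diet had replicate 1 at 232 CPM against 99.4 to 127 CPM in the others (gap of 0.793 of the range), and the same library had the highest Tmem100 of its group. Smad6 in sham libraries on the control diet had replicate 2 at 1031 CPM against 915 to 947 CPM (0.722). Id1 in sham libraries on the excess diet had replicate 5 at 198 CPM against 228 to 236 CPM (0.771). Atoh8 in Glenn libraries on the excess diet had replicate 3 at 7.93 CPM against 10.4 to 11.1 CPM (0.764).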

How the results depend on the processing

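Smad6 and Id1 stayed lower and past the threshold in all 4 comparisons of operation under each alternative and each left-out library. With arterial, general capillary and aerocyte scores in the model, 2 members were called on the control diet, 3 on the deficient diet, 2 on the excess diet and 2 averaged, where 1.94%, 2.2%, 1.1% and 2.35% of all genes were. With mural and fibroblast scores the numbers were 3 (deficient diet, 7.69% of all genes) and 4 (excess diet, 5.84%). With series A alone, 1 member (Id1) was called for excess against control diet after Glenn surgery, with 1.59% of all genes, from 2 excess-diet libraries. Scaling on endothelial markers turned Id2 on the deficient diet to 0.004 (edgeR adjusted p = 0.983). Leaving out a library gave 7 members called on the control diet (20.8% to 25.5% of all genes), 5 to 6 on the deficient diet (22.5% to 27.9%), 6 to 7 on the excess diet (17.5% to 22.4%) and 7 averaged (45.8% to 47.7%). The replicate block, a term for the replicate numbers, left 7, 6 and 7 members called on the 3 diets (25.9%, 27.9% and 21% of all genes), and for Smad6 the averaged change was -2.94 (edgeR adjusted p = 4.65e-16). Id3 on the excess diet lost its call when fitted with only the groups compared (-0.51, edgeR adjusted p = 0.136). The causes were not tested. The marker scores share the operation with the members, which limits what these fits can separate. A fit of only the groups compared was not run for the averaged comparison or the differences between diets.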
